A study of Mus musculus with 4 samples.

Results

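Described here are 10 genes of the Abcb1 neighbourhood of mouse chromosome 5, from Steap4 to Elapor2. Another 5 genes in that stretch had values and were not among the 10. The mRNA of the 10 genes held a smaller share of the RNA precipitated from 4T1 cells with an shRNA against CerS4 than from cells with a control shRNA. The gap was 6.34-fold or more for 9 of them and about 2-fold for Dmtf1. The genes were selected on that contrast itself: neighbours between 7960472 and 9484663 (build GRCm38) with low values in both libraries of the CerS4 shRNA cells. They are 10 of 12967 gene symbols, and their ratios between the cell lines are therefore a description with no test. Summed, they held 6181 CPM (read counts scaled to the same total in every library) in the IgG precipitate of the control cells and 384 CPM in that of the CerS4 shRNA cells. With Caprin-1 they held 4934 and 318 CPM. This was 16.1-fold less RNA by share with IgG and 15.5-fold less with Caprin-1.

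The 4 libraries came from RNA immunoprecipitation, in which RNA is recovered together with a protein. 4T1 cells, which are mammary carcinoma cells of a BALB/c mouse that form metastases, stably carried either a control hairpin (shSCR) or a hairpin against the ceramide synthase CerS4 (shCerS4). From each line came 1 precipitate with an antibody against the RNA-binding protein Caprin-1 and 1 with IgG, the background control, so no difference here has a replicate check. All cells grew in medium with puromycin. Whether either line was a clone or a pool, and which promoter drove the shRNA, was not given in the sources used here. Cers4 itself was not analysed here, so the knockdown was not checked. No library of input RNA was among the 4. Every value is therefore a share of precipitated RNA, and levels in the cells were not measured. In RNA pooled from many cells, fewer cells that carry a transcript and less of it per cell cannot be told apart.

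Estimated from the steps of the low values, the libraries held about 19673200 to 27026980 reads. All 6 epithelial markers had values, which summed to 2895 to 7654 CPM. Of the markers of other cells, 1 of 4 for leukocytes, 1 of 3 for endothelium and 3 of 4 for fibroblasts had values. These summed to 14.6 to 49.1, 0 to 0.666 and 20.8 to 65.7 CPM. Their part in the results was not tested. Intervals in brackets are 95% counting intervals of a log2 ratio between libraries. They cover counting error only. They also treat reads as independent molecules, which PCR reads without molecular identifiers are not, so they may be too narrow even for counting error.

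P-glycoprotein, the product of Abcb1, is a pump of the plasma membrane that uses ATP to export hydrophobic drugs, puromycin among them. Humans have a single ABCB1 gene, whereas mice carry the close paralogs Abcb1a and Abcb1b side by side. The genes around them have unrelated products. Sri encodes sorcin, a calcium-binding protein whose name comes from drug-resistant cells. Dbf4 encodes the activating subunit of the CDC7 kinase, which starts DNA replication at origins. Slc25a40 encodes a mitochondrial carrier related to the glutathione importer SLC25A39. Dmtf1 encodes a Myb-like transcription factor that binds D-type cyclins. Steap4 encodes a metalloreductase of iron and copper.

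The genes lie on both strands and several touch. Dbf4 and Slc25a40 run apart from a common start region, with 4 bases between the annotated genes. Abcb1a and Rundc3b overlap by 56.0 kb on opposite strands, and Tmem243 and Dmtf1 meet tail to tail with an overlap of 116 bases. Whether the counting used strand was not given, so reads in these overlaps could belong to either gene. Reads of Abcb1a and Abcb1b may also be divided between the paralogs with some error.

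Start regions of genes that were low together are shown for the pump gene Abcb1b, for Tmem243 and Rundc3b, and for the stretch that Dbf4 and Slc25a40 share. They come from RefSeq (GRCm38.p6), which gave a window of 300 bases for each of the 10 genes, 250 before the transcript start and 50 after it. For some genes, Slc25a40 and Rundc3b among them, that start is not the outer end of the annotated gene, from which the distances between genes were taken. Capitals mark the letters CCAAT (the CCAAT box) or GGGCGG (the GC box) on either strand. Abcb1b, Tmem243 and Rundc3b are the only ones of the 10 genes with CCAAT in the window, so those shown are not typical. The windows of Steap4, Sri and Abcb1a, not shown, held neither motif. The windows are chr5:8797897-8798196 on the plus strand for Abcb1b, chr5:9100487-9100786 on the plus strand for Tmem243 and chr5:8622903-8623202 on the minus strand for Rundc3b. The shared stretch of 221 bases is chr5:8422667-8422887, printed on the plus strand, on which Slc25a40 lies.
Abcb1b: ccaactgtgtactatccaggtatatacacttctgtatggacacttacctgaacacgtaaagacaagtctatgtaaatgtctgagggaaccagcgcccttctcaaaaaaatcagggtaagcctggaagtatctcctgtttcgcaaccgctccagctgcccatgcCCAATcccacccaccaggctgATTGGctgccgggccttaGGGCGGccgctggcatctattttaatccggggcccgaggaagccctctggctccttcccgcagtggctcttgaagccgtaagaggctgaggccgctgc
Tmem243: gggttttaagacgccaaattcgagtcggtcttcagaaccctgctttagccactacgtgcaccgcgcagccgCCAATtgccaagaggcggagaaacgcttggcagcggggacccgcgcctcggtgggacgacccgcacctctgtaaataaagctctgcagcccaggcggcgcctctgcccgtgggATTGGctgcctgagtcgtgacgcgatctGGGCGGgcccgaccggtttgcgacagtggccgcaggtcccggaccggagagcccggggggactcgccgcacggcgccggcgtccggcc
Rundc3b: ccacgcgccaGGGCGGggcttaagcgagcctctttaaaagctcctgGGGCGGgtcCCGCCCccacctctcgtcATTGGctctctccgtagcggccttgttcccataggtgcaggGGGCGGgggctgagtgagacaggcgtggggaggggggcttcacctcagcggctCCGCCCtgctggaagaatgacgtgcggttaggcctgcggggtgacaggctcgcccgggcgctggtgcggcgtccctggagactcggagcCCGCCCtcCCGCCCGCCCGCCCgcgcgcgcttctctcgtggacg
Dbf4 and Slc25a40: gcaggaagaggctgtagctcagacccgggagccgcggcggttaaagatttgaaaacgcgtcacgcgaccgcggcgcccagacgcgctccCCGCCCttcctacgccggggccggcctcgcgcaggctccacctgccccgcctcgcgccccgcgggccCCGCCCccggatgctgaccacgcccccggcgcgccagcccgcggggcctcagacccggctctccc

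A GGGCGG stood in 7 of the 10 windows, against 35.7% of all 32851 promoter windows of the table, some of which belong to the same gene. The windows of Dbf4 and Slc25a40 share 221 bases, so both matches of Slc25a40 are counted for Dbf4 as well. CCAAT stood in 3 of 10, against 37.4% of all windows. In both Abcb1b and Tmem243 a CCAAT on the minus strand lay 66 bases before the start. Rundc3b held 9 GGGCGG matches, some of them overlapping. CACGTG was in none of the 10 windows (7.15% of all). TATAAA was in that of Steap4 only (13.6% of all), and TGANTCA in that of Sri only (7.81% of all). CpG counts ran from 2 in Abcb1a to 47 in Slc25a40, with a median of 33.5, where the median of all windows was 7. The low genes thus had start regions both rich and poor in CpG. The windows of the background were not limited to genes with values here, whereas all 10 genes averaged 5 CPM or more. Shares and CpG counts among the genes compared were not computed, so nothing particular to the 10 genes is read from these differences. A match is a description of letters and not a binding site.

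The pump genes were among the lowest of all. Abcb1b stood at 2535 CPM with IgG and 1408 CPM with Caprin-1 in shSCR cells, and at 80.8 and 47.8 CPM in shCerS4 cells. In the shSCR IgG library only 17 symbols had a higher CPM, so Abcb1b had rank 18, and in the shCerS4 IgG library its rank was 3181. The log2 ratio of shCerS4 over shSCR was −4.97 [−5.04, −4.90] with IgG and −4.88 [−4.97, −4.80] with Caprin-1. About 3.19% and 3.39% of the shSCR level were left.

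Abcb1a stood at 114 CPM with IgG and 105 CPM with Caprin-1 in shSCR cells, and at 3.55 and 2.77 CPM in shCerS4 cells. The shCerS4 values rest on 70 and 68 reads. Its log2 ratio was −5.0 [−5.37, −4.66] with IgG and −5.24 [−5.63, −4.91] with Caprin-1. The latter was the lowest of the 10283 genes compared, all of which averaged 5 CPM or more. The Abcb1a intervals overlap those of Abcb1b in both precipitates.

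Sri stood at 1112 CPM with IgG and 1648 CPM with Caprin-1 in shSCR cells, against 82.8 and 108 CPM in shCerS4 cells. It was the member with the most reads in shCerS4 cells with Caprin-1, 2672. Its log2 ratios were −3.75 [−3.82, −3.67] with IgG and −3.93 [−3.98, −3.87] with Caprin-1. Sorcin mRNA was thus 13.4-fold and 15.2-fold lower by its share of these precipitates.

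Dbf4 stood at 1581 and 1131 CPM in shSCR cells and at 80.7 and 58.9 CPM in shCerS4 cells, with IgG and Caprin-1 in that order. Its log2 ratios, −4.29 [−4.37, −4.22] and −4.26 [−4.34, −4.19], nearly coincided. Slc25a40, which starts beside it, stood at 119 and 86.8 CPM in shSCR cells and at 18.8 and 10.5 CPM in shCerS4 cells. Its log2 ratios were −2.66 [−2.83, −2.51] and −3.05 [−3.24, −2.87]. Of the shSCR level, 5.10% and 5.22% were left for Dbf4 and 15.8% and 12.1% for Slc25a40.

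Steap4 had 139 and 93.9 CPM in shSCR cells and 7.73 and 6.69 CPM in shCerS4 cells, with log2 ratios of −4.17 [−4.42, −3.93] with IgG and −3.81 [−4.05, −3.58] with Caprin-1. Rundc3b, which encodes a RUN domain protein, had 192 and 139.8 CPM against 16.3 and 10.1 CPM. Its log2 ratios were −3.56 [−3.73, −3.39] and −3.78 [−3.98, −3.60]. The share of the shSCR level that was left was 5.57% and 7.15% for Steap4 and 8.50% and 7.27% for Rundc3b.

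Tmem243, which encodes a small membrane protein, had 149.6 and 166 CPM in shSCR cells and 16.8 and 13.1 CPM in shCerS4 cells. Its log2 ratios were −3.15 [−3.32, −2.99] with IgG and −3.66 [−3.83, −3.50] with Caprin-1. Elapor2, an endosome and lysosome protein gene, lies at the far end of the stretch. It had 81.8 and 48.6 CPM against 4.11 and 1.94 CPM, with log2 ratios of −4.31 [−4.65, −3.99] and −4.63 [−5.09, −4.23]. It is the longest of the 10 genes at 218.6 kb.

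Dmtf1 stood apart. Its levels were 158 CPM with IgG and 106 CPM with Caprin-1 in shSCR cells, and 72.5 and 57.6 CPM in shCerS4 cells. The log2 ratios were −1.13 [−1.22, −1.04] and −0.88 [−0.97, −0.79], so 45.8% and 54.3% of the shSCR level was left. From the lowest, this was rank 441 of 10283 genes with IgG and 607 with Caprin-1, where the other members had ranks of 2 to 30 and 1 to 22. Its neighbour Tmem243, with which it overlaps at the 3′ ends, kept 11.3% and 7.91%.

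**Figure D1:**
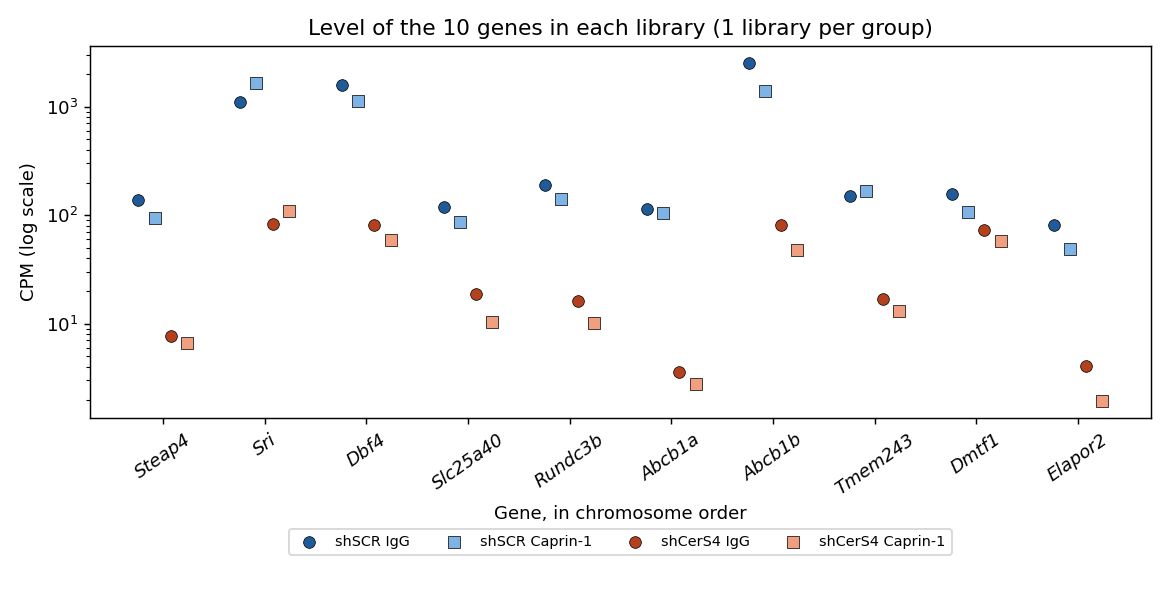
CPM on a log axis of each of the 10 genes, in chromosome order, with 1 point per library (circles IgG, squares Caprin-1, blue shSCR, red shCerS4) and no error bars, since there is 1 library per group. For every gene both shCerS4 points lie below both shSCR points, and the gap is smallest for Dmtf1 (158 and 106 against 72.5 and 57.6 CPM).

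In all 10 genes, both shCerS4 libraries lay below both shSCR libraries, which is what the choice of genes fixes. All 10 had passed the filter of 5 CPM on the mean, and Abcb1a and Elapor2, under 5 CPM in both shCerS4 libraries, did so through their shSCR values. Past 2-fold with an interval that excludes 0, 10 of 10 were lower with IgG, where 5.34% of all genes compared were, and 9 of 10 with Caprin-1, where 4.95% were. Higher past 2-fold were 5.69% of all genes with IgG and 6.25% with Caprin-1, and none of the 10. Under trimmed-mean scaling these shares were 6.26% lower and 4.36% higher with IgG, and 5.74% and 4.71% with Caprin-1. The median log2 ratio was −3.96 with IgG and −3.87 with Caprin-1, beside medians over all genes of 0.10 and 0.15. Because these counts come from the contrast that chose the genes, nothing is read from them.

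The block held 5 further genes with values, which were not among the 10. Crot, which encodes a peroxisomal carnitine acyltransferase and lies between Abcb1b and Tmem243, had 788 and 607 CPM in shSCR cells and 51.0 and 52.9 CPM in shCerS4 cells. Its log2 ratios were −3.95 [−4.04, −3.86] with IgG and −3.52 [−3.60, −3.44] with Caprin-1, well beyond those of the member Dmtf1. The other 4 had a mean under 5 CPM. Abcb4, the third gene of the Abcb1 cluster and a phospholipid exporter of liver cells, had 48 reads (2.42 CPM) and 70 reads (2.59 CPM) in shSCR cells and none in either shCerS4 library. Set against a floor of 3 reads per library, it was at least 15.9-fold lower with IgG and at least 21.3-fold lower with Caprin-1.

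Adam22, which encodes a membrane protein of the ADAM family, had 13.8 and 4.37 CPM in shSCR cells and 1.17 and 0.487 CPM in shCerS4 cells. Its log2 ratios were −3.53 [−4.24, −2.95] with IgG and −3.11 [−4.16, −2.31] with Caprin-1. Gm5106, which overlaps the start of Abcb1b by 377 bases, had 59 and 97 reads against 1 and 1. The ratios were −5.30 [−11.20, −3.34] and −5.89 [−11.79, −3.96]. Gm46901, which overlaps Dmtf1, had 131 and 73 reads against 1 and 0, a log2 ratio of −6.44 [−12.34, −4.52] with IgG and at least 22.2-fold lower with Caprin-1. All 13 protein-coding genes annotated from Steap4 to Elapor2 had values, and each had lower CPM in shCerS4 cells in both precipitates.

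Beyond Elapor2, the next gene with values was Grm3, a glutamate receptor gene 573 bases farther on. It had 96 and 91 reads in shSCR cells and 0 and 3 in shCerS4 cells. This was at least 31.7-fold lower with IgG and a log2 ratio of −4.58 [−7.10, −3.20] with Caprin-1. The next gene compared, the semaphorin gene Sema3e, lies 4.54 Mb beyond Elapor2 and had the opposite direction. It stood at 30.1 and 16.5 CPM in shSCR cells and at 79.1 and 60.7 CPM in shCerS4 cells, log2 ratios of 1.40 [1.26, 1.53] and 1.87 [1.72, 2.03]. Phtf2, Tmem60, Rsbn1l and Ptpn12, 11.3 to 11.5 Mb beyond, had log2 ratios of 0.19 to 1.06 with IgG and 0.16 to 0.87 with Caprin-1.

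Before Steap4, the nearest gene compared was its relative Steap1, at a distance of 2.21 Mb. Steap1 had 191 and 253 CPM in shSCR cells and 124 and 172 CPM in shCerS4 cells. Its log2 ratios, −0.62 [−0.69, −0.55] and −0.56 [−0.61, −0.50], were nearer 0 than those of any of the 10 genes. Farther out, Steap2 had −1.77 and −1.72, Gtpbp10 −2.25 and −2.54, Cldn12 −1.74 and −1.62 and Cdk14 −2.01 and −1.88, with IgG and Caprin-1 in that order. The change on this side is therefore not a steady slope with distance.

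**Figure D2:**
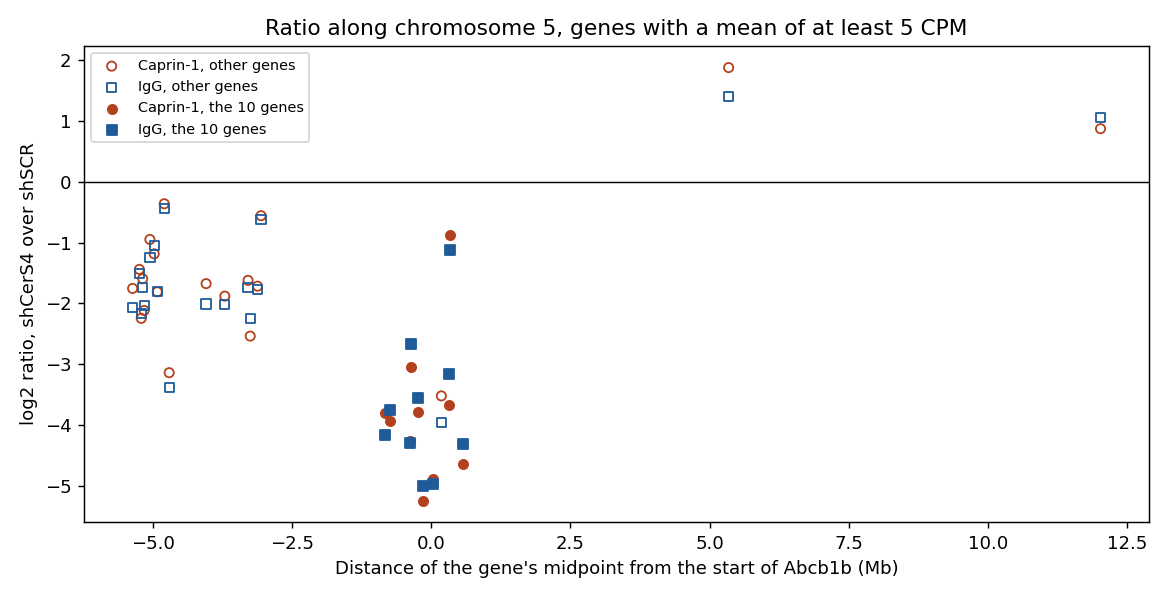
The log2 ratio of shCerS4 over shSCR (vertical axis) against the distance of each gene's midpoint from the start of Abcb1b in Mb (horizontal axis), for genes averaging 5 CPM or more. Filled marks are the 10 genes, open marks other genes, circles Caprin-1 and squares IgG. The lowest marks are Abcb1a (−5.24 and −5.0), Dmtf1 lies near −1, and Sema3e on the right is above 0.

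Single transcript rows were read next, since reads are divided among the transcripts of a gene. The 10 genes had 25 rows, of which 21 belonged to the 6 genes with several. The ratio of shCerS4 over shSCR was below 0 in 24 rows with Caprin-1 and in 23 with IgG. For Dbf4 the major and minor rows gave like ratios, −4.27 and −4.47 with IgG and −4.28 and −4.09 with Caprin-1. For Sri, 1 row carried 99.7% or more of the gene in every library.

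All rows above 0 were minor rows of Dmtf1. The row of rank 4 by mean level had 2.79 and 0.783 CPM in shSCR cells and 5.12 and 1.13 CPM in shCerS4 cells, with IgG and Caprin-1 in that order. The log2 ratios were 0.87 [0.40, 1.39] and 0.52 [−0.32, 1.44]. The row of rank 3 had 2.95 and 3.47 CPM in shSCR cells and 4.23 and 2.23 CPM in shCerS4 cells, log2 ratios of 0.52 [0.00, 1.01] with IgG and −0.63 [−1.15, −0.15] with Caprin-1. The remaining rows were all lower in shCerS4 cells. The main row of Dmtf1 had 108 and 63.7 CPM in shSCR cells and 42.3 and 42.6 CPM in shCerS4 cells, so its ratio was −1.35 [−1.47, −1.23] with IgG and −0.58 [−0.69, −0.47] with Caprin-1. Its share of the gene was 68.1% and 60.1% in shSCR cells and 58.3% and 74.0% in shCerS4 cells.

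Rows of low level did not hold the same share in the 2 precipitates of shCerS4 cells. The second row of Rundc3b had 18 reads with IgG and 77 with Caprin-1 there, against 923 and 670 in shSCR cells. The third row had 27 and 4 reads, against 252 and 538. The main row had 275 and 169 reads, against 2626 and 2570. Likewise the third row of Elapor2 had 4 and 11 reads in shCerS4 cells, against 210 and 31. Its last row had 15 and 16 reads in shSCR cells and none in shCerS4 cells, at least 5.12-fold and 4.97-fold lower against the floor of 3 reads per library.

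Slc25a40 spread over 3 rows of 20.2 to 55.5 CPM in the shSCR IgG library. Their log2 ratios ran from −3.01 to −1.68 with IgG and from −3.83 to −2.33 with Caprin-1. The row with the most CPM over all libraries held 36.3% of the gene with IgG and 55.9% with Caprin-1 in shSCR cells, and 29.6% and 32.4% in shCerS4 cells. How reads were assigned to transcripts was not given, and its part in these differences was not tested.

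**Figure D3:**
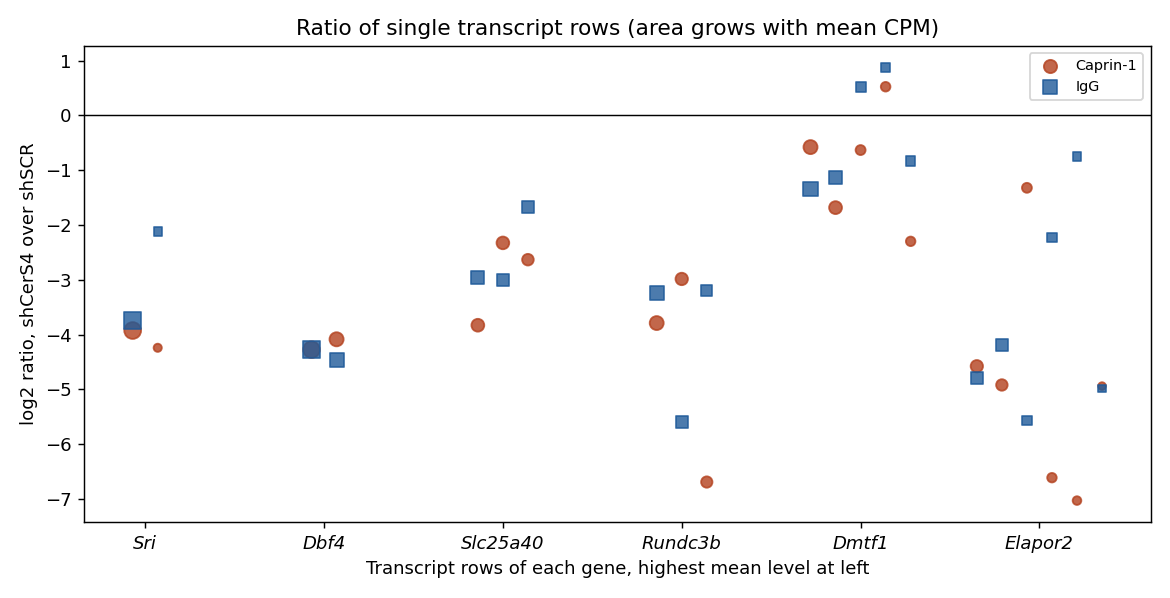
The log2 ratio of shCerS4 over shSCR for each transcript row of the 6 genes with several rows, ordered within a gene by mean level, with larger marks for higher mean CPM (circles Caprin-1, squares IgG). The marks above 0 are minor rows of Dmtf1 (0.52 and 0.87 with IgG, 0.52 with Caprin-1). Rows with no reads in shCerS4 cells are drawn with 0.5 reads added.

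The Caprin-1 over IgG ratio within a cell line was not used to choose the genes, although it is made from the same libraries. It tells which mRNAs held a larger share with Caprin-1 than in the background precipitate. In shSCR cells 8 of the 10 genes were below 0 and 2 above, all with intervals that exclude 0, and the median was −0.47 beside −0.13 over all genes. None was past 2-fold, where 13.0% of all genes were lower and 1.69% higher. Under trimmed-mean scaling these shares were 9.15% and 4.14%. In shCerS4 cells 9 were below 0, 7 of them with an interval that excludes 0, and 1 was above. The median there was −0.40 beside −0.11 over all genes. The share of all genes below 0 was not computed. As the medians over all genes were also below 0, the counts below 0 are not read as a trait of the 10 genes.

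Sri was the member most enriched with Caprin-1 in both lines, at 0.57 [0.54, 0.59] in shSCR and 0.39 [0.30, 0.48] in shCerS4 cells. That is 1.48-fold and 1.31-fold, above 87.9% and 82.9% of all genes compared. Abcb1b lay at the other end in shSCR cells, at −0.85 [−0.87, −0.83], and stood at −0.76 [−0.87, −0.65] in shCerS4 cells. Its paralog Abcb1a stood at −0.12 [−0.20, −0.04] and −0.36 [−0.87, 0.13]. The counting intervals of the paralogs do not overlap in shSCR cells and overlap in shCerS4 cells. The sign for Abcb1a in shSCR cells turned under trimmed-mean, upper-quartile and median-of-ratios scaling, which gave 0.05 to 0.06. With totals that leave out the chromosome 5 run it was −0.12.

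Dbf4 had almost the same ratio in both lines, −0.48 [−0.51, −0.46] and −0.45 [−0.56, −0.35]. Slc25a40 had −0.46 [−0.54, −0.37] in shSCR cells, against −0.84 [−1.08, −0.61] in shCerS4 cells, and its most abundant row alone gave 0.17 in shSCR cells. Rundc3b stood at −0.46 [−0.52, −0.39] and −0.68 [−0.93, −0.44], and Steap4 at −0.57 [−0.65, −0.49] and −0.21 [−0.53, 0.12]. Dmtf1 had −0.58 [−0.65, −0.51] and −0.33 [−0.44, −0.23], the latter 0.01 in its most abundant row.

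Elapor2 was the 1 member past 2-fold, in shCerS4 cells, at −1.08 [−1.63, −0.55] from 81 and 48 reads, where 8.02% of all genes were lower and 0.934% higher past 2-fold. With trimmed-mean scaling, where 5.01% of all genes were lower and 2.50% higher, it was −0.92, and with the median of ratios or the upper quartile −0.93, under 2-fold. On the most abundant row of each gene Elapor2 was at −0.59 and Rundc3b, at −1.02, was the member past 2-fold instead. In that setting 928 of 10037 genes were lower and 181 higher past 2-fold, so nothing is read from 1 member. In shSCR cells Elapor2 stood at −0.75 [−0.86, −0.64]. Tmem243 was the gene on opposite sides of 0, at 0.15 [0.09, 0.22] in shSCR cells and −0.36 [−0.58, −0.13] in shCerS4 cells. Of the genes above 0 in shSCR cells, Tmem243 and Sri span 18.2 and 23.2 kb, and Steap4, at −0.57, spans 21.7 kb. These are spans on the genome and not transcript lengths, and a link of the ratio with length was not tested.

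**Figure D4:**
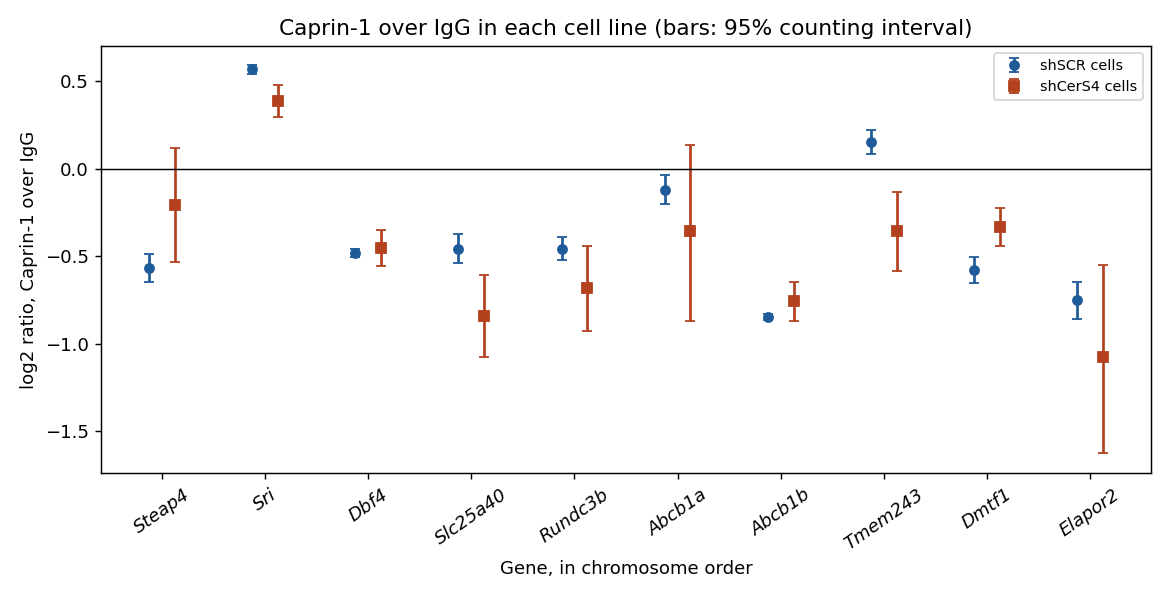
The log2 ratio of Caprin-1 over IgG (vertical axis) for the 10 genes in shSCR cells (circles) and shCerS4 cells (squares), with bars for the 95% counting interval. Sri lies above 0 in both lines (0.57 and 0.39), Tmem243 changes side (0.15 and −0.36), and the bars are widest for Elapor2 and Abcb1a in shCerS4 cells.

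The difference of this ratio between the lines, shCerS4 minus shSCR, was under 2-fold in all 10 genes. Over all genes 0.350% were lower and 0.632% higher past 2-fold. The median was −0.20, beside 0.04 over all genes. Tmem243 was lowest at −0.51 [−0.74, −0.28], followed by Slc25a40 at −0.39 [−0.63, −0.14], and Sri was at −0.18 [−0.27, −0.09]. Steap4 was highest at 0.36 [0.03, 0.69], followed by Dmtf1 at 0.25 [0.12, 0.38]. For the other 5 genes the interval held 0, among them Abcb1b at 0.09 [−0.02, 0.20] and Dbf4 at 0.03 [−0.07, 0.14].

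Genes related to the members by function were then read from lists. Over all genes compared, 5.69% were higher and 5.34% lower past 2-fold with IgG, and 6.25% and 4.95% with Caprin-1. A few genes past 2-fold in a short list are therefore not read as a result about that list. Of 31 other genes of the ABC protein family, not all of which encode transporters, 21 were compared. In each precipitate 1 of them was past 2-fold higher with shCerS4 and 1 past 2-fold lower. The mitochondrial transporter gene Abcb10 stood at 1.27 [1.11, 1.43] with IgG and 1.21 [1.06, 1.36] with Caprin-1. The organic anion exporter gene Abcc3 stood at −1.40 [−1.52, −1.29] and −1.08 [−1.19, −0.96]. Abcf1, the most abundant of the list by CPM, stood at −0.04 and −0.27, and the peroxisomal Abcd3 at 0.54 and 0.89. The list median was 0.15 with IgG and 0.50 with Caprin-1. None of these named genes was as low as either pump gene.

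Of 16 genes described as regulators of ABCB1, 13 were compared and none was past 2-fold. Ybx1, which encodes the Y-box protein, stood at 0.07 and −0.40 with IgG and Caprin-1, and Nfyc, a subunit gene of the CCAAT-binding factor, at −0.43 and −0.43. Hif1a, the hypoxia factor gene, stood at 0.46 and 0.75 and Foxo3 at 0.74 and 0.63.

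The partners of Dbf4 were read in the same way. Of 11 genes for CDC7 and its replication targets, 10 were lower past 2-fold with IgG, beside 5.34% of all genes, and 9 with Caprin-1, beside 4.95%. None was higher, and the medians were −1.93 and −1.65. Cdc45, a helicase component, stood at −2.21 and −2.08, and the helicase genes Mcm6 and Mcm3 at −2.15 and −1.96 and at −2.23 and −1.97. Dbf4, at −4.29 and −4.26, lay below each of these named genes.

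For Steap4, the list of its family and of iron handling had 10 genes compared. Past 2-fold, 2 were higher and 1 lower with IgG, and 2 higher and 2 lower with Caprin-1. The iron exporter gene Slc40a1 stood at 2.75 in both precipitates and the iron importer gene Slc11a2 at 1.52 with IgG and 1.63 with Caprin-1, while ferritin Fth1 stood at 0.53 and 0.17. The metalloreductase gene Steap2, on the same chromosome as Steap4, was lower at −1.77 and −1.72. For Sri, 2 of 10 genes of its protein family and of calcium handling were higher with Caprin-1 and 1 with IgG, none lower, with Itpr2 at 1.04 and 1.53 and Gca at 0.89 and 1.24. Atp2a2, the calcium pump gene of the endoplasmic reticulum, stood at 0.41 and 0.81, and Capns1 at 0.00 and −0.19.

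For Slc25a40, none of 10 glutathione genes was past 2-fold, with Gsr at −0.46 and −0.45, Gclm at 0.09 and 0.69 and Gss at 0.44 and 0.45. For Dmtf1, 1 of 6 compared genes of its circuit was higher and 1 lower. Ccnd2 stood at 1.00 and 1.26, the cell cycle inhibitor gene Cdkn1a at −2.22 and −2.27, and Ccnd1 at −0.80 and −0.92. For Rundc3b, 1 of 10 genes of the RUN domain list was higher, Rufy3 at 1.13 and 1.37. The small GTPase genes Rap2a, Rap2b and Rap2c stood at 0.17 to 0.37 with IgG and 0.38 to 0.51 with Caprin-1.

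Outside the run of low genes that extends back to Cdk6, the 5 genes with the most similar profile lay on other chromosomes. Likeness was the Euclidean distance to the median profile of the 10 genes over the 4 libraries, in centred log2 CPM units. The vitamin D hydroxylase gene Cyp24a1 was nearest, at a distance of 0.24, with 32.2 and 19.9 CPM in shSCR cells and 1.78 and 1.38 CPM in shCerS4 cells. Cldn9 followed at 0.70, the replication licensing gene Cdc6 at 0.71, Ncmap at 0.86 and Uhrf1 at 0.87. Among the 10 genes the distance ran from 0.18 for Steap4 to 2.95 for Dmtf1. The profile spans 4 libraries and is made mostly of the contrast on which the 10 genes were chosen.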

How the data were processed

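RNA was sequenced from 4 precipitates, 1 per group. Per the submitters' processing notes, the authors aligned reads to mm10 with STAR in Partek. The counting, its use of strand and versions were not given in the sources used here. The deposited CPM values were per transcript, with 0.0001 added to each, which was subtracted. Although the name of the deposited file speaks of counts, its columns share 1 sum and hold fractions. Rows were summed per symbol (24393 rows, 12967 symbols).

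Depth came from the spacing of low CPM values. At this depth 80.3% to 81.7% of gene values under 40 CPM came within 0.05 of whole reads. A floor of 3 reads was 0.111 to 0.152 CPM.

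Log2 ratios used library totals and 0.5 added reads. Ratio intervals are exact for Poisson counts conditional on their sum, and the interval of a difference uses a normal approximation. Positions are those of RefSeq GRCm38.p6. CPM is not per length, so an order of genes by CPM is an order of reads and not of expression.

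The named genes were the 10 members, all others with values from Steap4 to Elapor2, the 5 nearest compared genes on each side and the 5 likest genes. From each list came the most abundant gene and the 3 with the largest absolute log2 ratio of shCerS4 over shSCR with Caprin-1. Members and lists were chosen with earlier results of these data known, and Grm3 after its values were seen. Scripts ran in Python with numpy 2.4.6, pandas 2.3.3 and scipy 1.17.1 and were tested on simulated data. Alternatives were scaling by trimmed mean, upper quartile or median of ratios, totals without the chromosome 5 run, 5 added reads, the offset kept, the most abundant row, filters of 1 CPM, 20 CPM and none, and no interval.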

Additional observations from a re-analysis of the deposited data

Results flagged for a closer look

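The Caprin-1 over IgG log2 ratio of Tmem243 was 0.15 in shSCR cells and −0.36 in shCerS4 cells, on opposite sides of 0 with intervals that exclude 0. With 1 library per group this difference between the cell lines has no replicate test, although its counting interval, [−0.74, −0.28] around −0.51, excludes 0. The signs were the same under trimmed-mean, upper-quartile and median-of-ratios scaling, at 0.32 to 0.33 in shSCR and −0.22 to −0.20 in shCerS4 cells. Such scaling moves an interval along with its ratio. The shCerS4 interval, which ended at −0.13 with library totals, therefore held 0 under each of these scalings. The flag thus depends on scaling by totals. With totals that leave out the chromosome 5 run the ratios were 0.15 and −0.36.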

How the results depend on the processing

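No replicate could be left out and no paired analysis was possible because each group had 1 library. Under the alternatives the median over the 10 genes for shCerS4 over shSCR ran from −4.00 to −3.85 with Caprin-1 and from −4.05 to −3.93 with IgG, and 9 to 10 and 10 of the genes were lower past 2-fold. For Caprin-1 over IgG the medians, −0.47 in shSCR and −0.40 in shCerS4 cells, moved to −0.31 and −0.25 under trimmed-mean, −0.29 and −0.26 under median-of-ratios and −0.29 and −0.26 under upper-quartile scaling, because these move the median of all genes, from −0.13 to between 0.03 and 0.05 in shSCR cells. Under each of these scalings 0 of the 10 genes were lower past 2-fold in shCerS4 cells. The median of the difference ran from −0.24 to −0.09. Of 550 single values of the 10 genes under alternatives, 78 left their interval and 9 changed sign, the latter all in Caprin-1 over IgG or its difference. The 472 that stayed include every value under the filters and under no interval. Those settings cannot change the ratio of a single gene, so the 472 overstate how stable the values are. Counts over all genes varied with filter and scaling. With Caprin-1 they ran from 353 to 1274 higher and 333 to 927 lower, and with IgG from 297 to 1237 and 338 to 1181. For Caprin-1 over IgG they ran from 113 to 461 and 910 to 2049 in shSCR cells, from 53 to 357 and 515 to 1358 in shCerS4 cells, and from 8 to 457 and 3 to 311 for the difference. In shCerS4 cells Abcb1a and Elapor2 rest on 48 to 81 reads, which limits their intervals.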
